A study of Mus musculus with 209 samples.

Results

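Dppa2, Dppa4, Nr5a2, Rarg and Klf17 encode nuclear proteins that have been linked to the start of transcription from the mouse embryo's own genome. The 5 genes were taken by symbol from a table of read counts per gene for single oocytes and 2-cell samples, from its maternal and paternal allele tables, and from a pair of epiblast tables. All 5 symbols were found among the 24450 genes of the first table and the 24446 genes that both epiblast tables share. The genes were chosen by name and not by their values.

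A mouse egg is loaded with maternal mRNA and is silent in transcription until after fertilisation. Zygotic genome activation is the step at which the embryo begins to transcribe its own genes, with a major wave at the 2-cell stage in the mouse, while maternal transcripts are cleared. DPPA2 and DPPA4 are SAP-domain chromatin proteins that bind as a pair and, in embryonic stem cells, act upstream of the transcription factor DUX and of 2-cell transcripts such as Zscan4. NR5A2 is an orphan nuclear receptor that binds DNA as a monomer, RARG is a nuclear receptor for retinoic acid that pairs with RXR proteins, and KLF17 is a zinc finger protein of the KLF family that is abundant in oocytes.

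The 4 groups of single-cell libraries were 14 WT and 19 N14 maternal KO oocytes at metaphase II (MII), and 8 WT and 9 N14 maternal KO 2-cell samples. N14 was read as Nlrp14, a maternal gene of the NLRP family, and maternal KO was taken to mean that the egg came from a knockout female. The labels do not give the allele, or the Cre driver if there was one. C57BL/6 females aged 6 to 8 weeks were superovulated with PMSG and hCG; oocytes were taken 14 to 15 h and 2-cell embryos 42 to 43 h after hCG. Males were C57BL/6 or PWK, and which of them sired these 2-cell samples is not stated. The allele counts of the 2-cell samples need a father that differs in sequence from C57BL/6, as PWK males do. The epiblast samples were WT with both parents C57BL/6, 2 of them E6.5 epiblasts (marked ND in their titles, which is not explained) and 2 labelled IVC, a term that the labels do not spell out. polyA RNA was measured in all of them. Each of the 50 single-cell libraries is labelled as 1 cell with no animal named, so each group counts as 1 sample here. Differences between these groups carry no test, and the intervals given are exact conditional Poisson 95% intervals on the counts summed over a group, which cover counting error only.

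Total gene counts per library ran from 2704050 to 15007301. Nlrp14 stood at 225.1 to 3307 counts scaled to a library total of 1000000 (CPM) in WT oocytes and 0.643 to 73.2 in KO oocytes, and at 105.6 to 476.9 in WT and 29.4 to 86.4 in KO 2-cell libraries, with no overlap at either stage. Oocyte libraries fell into 3 technical sets: 10 WT and 7 KO libraries in which ERCC spike-ins exceeded 0.01% of counts (the spike-in set), 3 WT and 10 KO libraries with less than 1% of counts on the ribosomal RNA precursor Rn45s (the low-rRNA set), and 1 WT and 2 KO others. All 17 2-cell libraries exceeded 0.01% as well, so the comparisons between stages are given with the spike-in oocytes as well. Oocyte markers were present in every group of oocytes and 2-cell samples, with none of the 12 absent from a group, and summed to 7204 to 28445 CPM in WT oocytes, 9965 to 31668 in KO oocytes, 4013 to 11902 in WT 2-cell and 6572 to 31011 in KO 2-cell libraries. Markers of cumulus and granulosa cells summed to 229 CPM at most. The share of allele-assigned counts that was paternal was 4.00% in WT 2-cell 8, the lowest in WT, and 8.68% in KO 2-cell 3, the highest in KO. WT 2-cell 8 was not the only low WT library. In WT 2-cell 1 the paternal share was 3.66% for Dppa2 and 6.26% for Klf17, though 51.45% for Dppa4.

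RefSeq sequence before the annotated start was at hand for 3 of the 5 genes, Nr5a2, Rarg and Klf17. The 250 bases before the first listed start of each are shown because Nr5a2 and Rarg were higher, and Klf17 lower, in WT 2-cell than in oocyte libraries. Capitals mark 6 motifs searched on both strands. Nuclear receptors bind AGGTCA, and the NR5A element CAAGGTCA contains that motif. Proteins of the SP family bind GGGCGG, called the GC box here. The KLF and SP families also bind CCACCC, called the CACCC box here. The factor NF-Y binds CCAAT, and homeodomains of the OBOX type bind a core of the form GGATTA.
Nr5a2, GRCm38.p6 chr1:136960449-136960698, minus strand: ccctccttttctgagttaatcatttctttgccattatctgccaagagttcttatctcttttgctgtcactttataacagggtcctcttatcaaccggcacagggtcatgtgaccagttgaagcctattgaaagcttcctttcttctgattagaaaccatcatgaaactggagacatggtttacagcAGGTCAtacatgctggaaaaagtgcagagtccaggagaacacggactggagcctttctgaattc
Rarg, GRCm38.p6 chr15:102257523-102257772, minus strand: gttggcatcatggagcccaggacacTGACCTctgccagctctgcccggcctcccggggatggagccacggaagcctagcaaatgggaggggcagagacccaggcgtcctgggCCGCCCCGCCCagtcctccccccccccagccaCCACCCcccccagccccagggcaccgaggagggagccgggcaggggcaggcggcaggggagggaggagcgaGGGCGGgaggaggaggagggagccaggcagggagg
Klf17, GRCm38.p6 chr4:117765667-117765916, minus strand: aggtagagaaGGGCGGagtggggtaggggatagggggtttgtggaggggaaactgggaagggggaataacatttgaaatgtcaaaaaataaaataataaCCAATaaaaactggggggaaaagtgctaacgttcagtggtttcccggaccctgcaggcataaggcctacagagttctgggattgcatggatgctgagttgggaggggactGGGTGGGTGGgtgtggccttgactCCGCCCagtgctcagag
The Nr5a2 window had 1 AGGTCA, whose first base lay 64 bases before the start, and none of the other motifs, and 43.2% of its bases were G or C. The Rarg window was 74.4% G or C and held 3 GC boxes, 1 CACCC box and 1 AGGTCA on the opposite strand. The Klf17 window held 2 GC boxes, 2 overlapping CACCC boxes and 1 CCAAT. A second listed start of Nr5a2 had 2 CACCC boxes and 1 CCAAT, and that of Rarg had 1 CACCC box. Neither CAAGGTCA nor GGATTA occurred in any of the 5 windows. Over the 32851 RefSeq windows of the same length, 14% held the nuclear receptor motif, 1.33% the NR5A element, 32.7% a GC box, 28.1% a CACCC box, 33.8% the NF-Y motif and 6.25% the OBOX-type core. Dppa2 and Dppa4 are neighbours among the protein-coding genes in the RefSeq annotation of GRCm38.p6. Other kinds of gene between them were not looked for.

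Between WT oocytes and WT 2-cell samples the 5 genes took 3 courses. Dppa4 and Rarg were close to absent in oocytes and present in every WT 2-cell library, Nr5a2 and Dppa2 were already in the oocyte, and Klf17, abundant in oocytes, was lower at 2 cells. A gene was called when its summed CPM differed by 2-fold or more and reached 10 CPM in either group. In this comparison 41.1% of 8532 genes were called higher and 14.3% lower, and with TMM scaling, which assumes that most genes keep their level, 26.4% and 32.3%. Dppa4 and Nr5a2 were called higher and Klf17 lower. Rarg never reached 10 CPM in a whole group and is given by its counts. How many of all genes lack overlap between the libraries of the stages is not given here. Statements below on the order of libraries between stages are therefore descriptions only. Samples with less RNA per cell or with a different mix of RNAs cannot be told apart in CPM.

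Dppa4, the partner of DPPA2, ranged from 0 to 5.47 CPM in WT oocytes, with a median of 1.42, and from 37.3 to 308.8 CPM in WT 2-cell libraries, with a median of 222.3. Every WT 2-cell library lay above every WT oocyte. The summed CPM was 172.2 at 2 cells against 1.36 in oocytes, a log2 ratio of 6.99 (interval 6.75 to 7.23), and 6.42 against the spike-in oocytes alone.

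Rarg, the retinoic acid receptor, gave 11 counts in all 14 WT oocytes together and 358 in the 8 WT 2-cell libraries. Its level ran from 0 to 0.335 CPM in oocytes and from 2.13 to 19.01 CPM, with a median of 8.74, at 2 cells, without overlap. The log2 ratio was 6.37 (5.51 to 7.38).

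Nr5a2 was found in all 14 WT oocytes, at 7.17 to 22.4 CPM with a median of 12.2. In WT 2-cell libraries it ran from 13.7 to 74.2 CPM with a median of 61.2, and 6 of 8 lay above every oocyte. The log2 ratio of summed CPM was 1.87 (1.76 to 1.97), and it was 0.95 with TMM scaling, short of the 2-fold call.

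Dppa2 transcripts were also present in all 14 WT oocytes, at 46.8 to 183.3 CPM. The oocyte values followed the technical sets, with 46.8 to 89.8 CPM in the spike-in set and 174.5 to 183.3 CPM in the low-rRNA set. WT 2-cell libraries held 112.5 to 270.5 CPM with a median of 193.2. All 8 were above the spike-in oocytes, with a log2 ratio of 1.41 (1.36 to 1.46), but the ratio was 0.090 (0.042 to 0.137) against the low-rRNA oocytes. With all oocytes it was 0.81, and with TMM scaling it changed sign to -0.10.

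Klf17 stood at 812.7 to 1358 CPM in the spike-in WT oocytes and 403.5 to 830 CPM in the low-rRNA ones. WT 2-cell libraries held 239 to 523.8 CPM, with a median of 395.3, all below the spike-in oocytes. The log2 ratio was -1.52 (-1.54 to -1.50) against the spike-in set and -0.66 (-0.69 to -0.63) against the low-rRNA set. Klf17 was thus lower at 2 cells in either set, while Dppa2 differed from oocytes mainly in one of them.

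**Figure D1:**
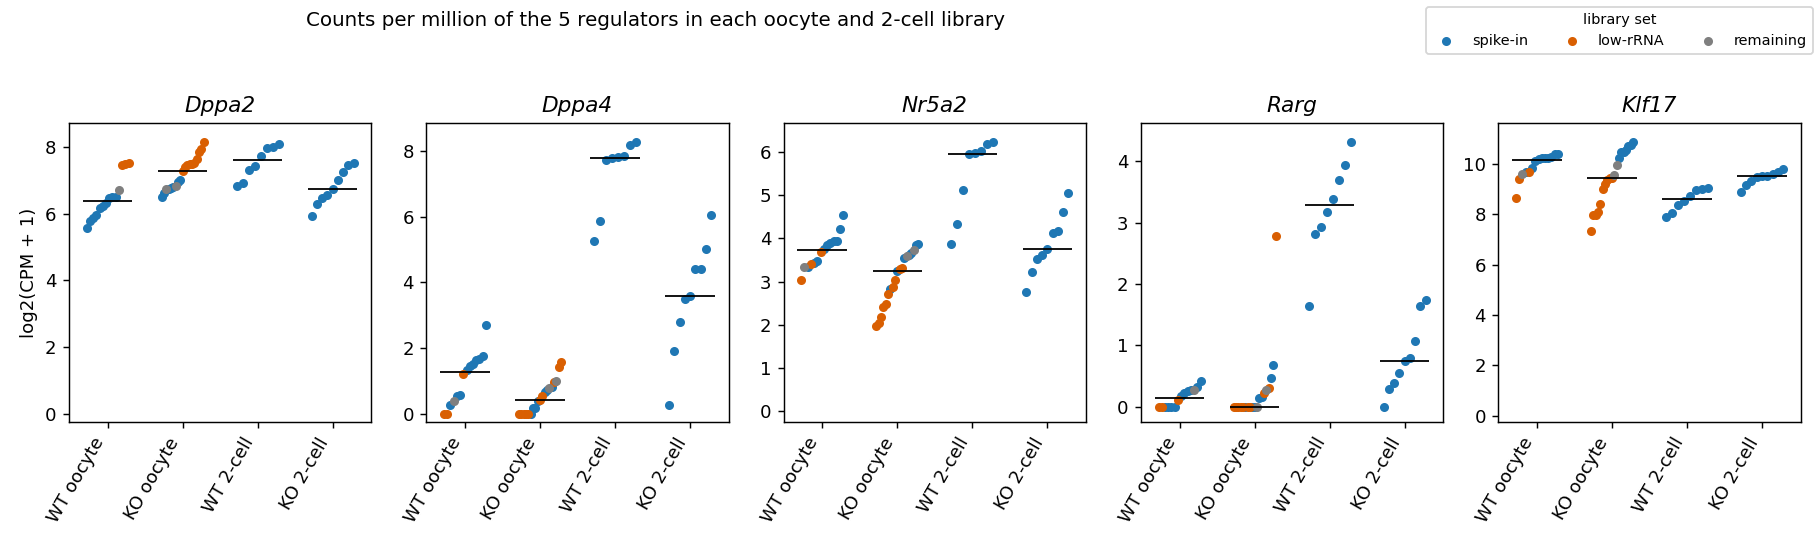
Each point is 1 library, on the scale log2(CPM + 1), by group and coloured by technical set (spike-in, low-rRNA or remaining), with a black line at the group median. Dppa4 and Rarg lie near 0 in most oocytes and higher in WT 2-cell libraries, and KO 2-cell libraries lie below the WT median for Dppa2, Dppa4, Nr5a2 and Rarg and above it for Klf17.

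Stage differences in the KO were smaller for the genes that were higher at 2 cells in WT. Of 7179 genes, 23.6% were called higher and 17.4% lower in KO 2-cell than in KO oocyte libraries (10.9% and 31.8% with TMM scaling), and of the 5 only Dppa4 was called. It had 14.1 CPM in the KO 2-cell sum against 0.450 in KO oocytes, a log2 ratio of 4.97 (4.60 to 5.35), beside 6.99 in WT. Nr5a2 had a log2 ratio of 0.87 (0.74 to 0.99) beside 1.87 in WT, and -0.33 per spike-in count against the spike-in oocytes, so that its direction in the KO turned with the scaling. The ratios were not tested against each other, since each genotype is 1 sample.

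Rarg gave 55 counts in the 9 KO 2-cell libraries and 60 in the 19 KO oocytes, a log2 ratio of 1.11 (0.56 to 1.66). Of the 60 oocyte counts 45 came from 1 library, KO oocyte 6, and without it the ratio was 3.03. Dppa2 had a ratio of -0.30 against all KO oocytes, 0.20 against the spike-in set and -0.63 against the low-rRNA set. Klf17 was lower than in the spike-in KO oocytes (log2 -1.09, interval -1.10 to -1.07, no overlap) but higher than in the low-rRNA ones (0.65, 0.64 to 0.67), so that its direction in the KO turned with the oocyte set.

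At the 2-cell stage, KO libraries held less Dppa4, Nr5a2 and Rarg and more Klf17 than WT libraries. Of 8416 genes, 31.6% were called lower and 5.96% higher in KO, with a median log2 ratio of -0.35. Dppa4 and Nr5a2 were among those called lower, which by itself is not rare at this background. All 9 KO libraries lay below the WT median for Dppa2, Dppa4, Nr5a2 and Rarg, and all 9 above it for Klf17, although the groups overlapped for each gene. The share of all genes with such an order of libraries is not given here. These library counts, and those below, are therefore descriptions only.

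Dppa4 ran from 0.213 to 65.8 CPM in KO 2-cell libraries, with a median of 10.9, against 37.3 to 308.8 CPM in WT. In 8 of 9 KO libraries it was below every WT library, and the exception was KO 2-cell 3 at 65.8 CPM. The log2 ratio of summed CPM was -3.62 (-3.72 to -3.51), which is 12.3-fold lower, and -4.20 without both KO 2-cell 3 and WT 2-cell 8. Those were the KO library with the most Dppa4 and the WT library with the least, so leaving them out widens the ratio by construction.

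Rarg ran from 0 to 2.35 CPM in KO with a median of 0.675, and 8 of 9 libraries were below every WT library. The log2 ratio was -3.24 (-3.68 to -2.83) on 55 against 358 counts. WT 2-cell 8 had the lowest Rarg level in WT, so leaving it out raises the WT sum by construction. The WT sum then reached 10 CPM at a log2 ratio of -3.55, and Rarg met the call only through that step.

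Nr5a2 ran from 5.80 to 32.2 CPM in KO with a median of 12.4, where WT libraries had a median of 61.2. In 5 of 9 KO libraries it was below every WT library, and its log2 ratio was -1.60 (-1.71 to -1.48). Per spike-in count the ratio was -0.77, under the 2-fold call.

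Dppa2 stood at 59.7 to 181.2 CPM in KO with a median of 106.9, beside a WT median of 193.2. Its log2 ratio was -0.59 (-0.63 to -0.54), -0.13 with TMM scaling and 0.23 per spike-in count, so that its direction depended on the scaling.

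Klf17 stood at 470.4 to 886.2 CPM in KO with a median of 730.2, and 8 of 9 libraries exceeded every WT library. The log2 ratio was 0.84 (0.82 to 0.87), short of 2-fold, and with TMM scaling it was 1.30 and passed the call. Of 12 oocyte markers 5 were called higher in KO 2-cell libraries, 0 lower and 7 neither, beside 5.96% higher and 31.6% lower over all genes. H1foo, an oocyte linker histone gene, was among the 5 at a log2 ratio of 3.42. With TMM scaling 6 were higher and 0 lower, beside 16.6% and 22.8% of all genes, and without WT 2-cell 8 and KO 2-cell 3 the counts were 6 and 1. Their part in the Klf17 result was not tested.

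TMM scaling shifted every log2 ratio of this comparison by 0.46 and DESeq2's size factors by 0.50. Spike-in RNA made up 0.101% of the WT and 0.0573% of the KO 2-cell counts, and scaling to it shifted ratios by 0.82. Under TMM scaling 16.6% of genes were called higher and 22.8% lower. Dppa4, Nr5a2 and Rarg stayed lower and Klf17 higher in KO under each of these scalings. How much spike-in RNA each library received is not given in the sources used here.

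**Figure D2:**
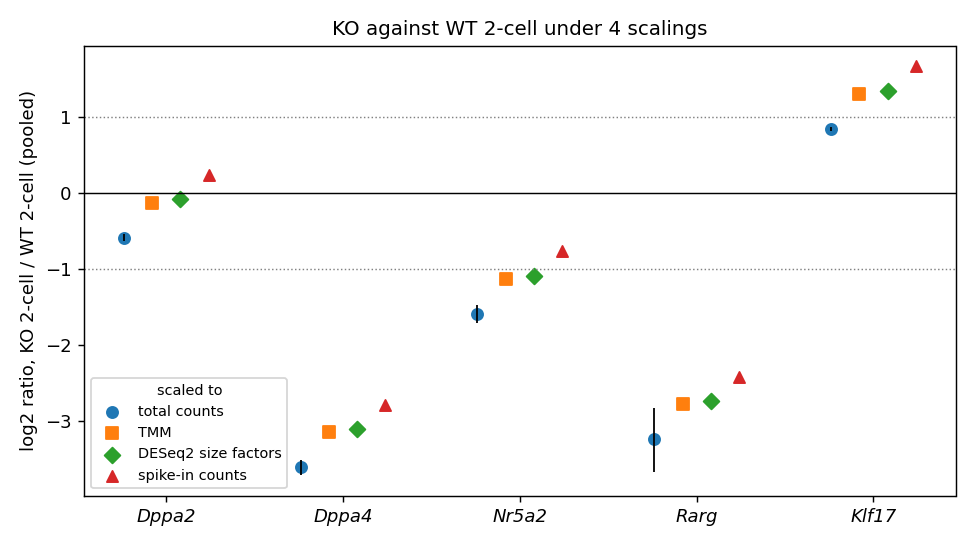
Points give the log2 ratio of KO to WT 2-cell samples, summed over libraries, for each gene under 4 scalings, with dotted lines at 2-fold and the 95% counting interval drawn on the total-count value. Dppa4, Nr5a2 and Rarg are below 0 and Klf17 above 0 under each scaling, and Dppa2 crosses 0, from -0.59 to 0.23.

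In oocytes, before the embryo's genome is active, several ratios between genotypes differed between the technical sets. Of 6325 genes, 2.04% were called higher and 2.39% lower in KO oocytes, and none of the 5 was called. Within the spike-in set Dppa2 was 109.4 CPM in KO against 71.3 in WT, a log2 ratio of 0.62 (0.56 to 0.67), and 6 of 7 KO libraries lay above every WT library. Within the low-rRNA set its ratio was 0.13 (0.084 to 0.170). Nr5a2 was lower in KO in both sets, at -0.36 (-0.51 to -0.21) and -0.84 (-1.05 to -0.63), but per spike-in count the spike-in set gave 0.13 for it and 1.11, past the 2-fold line, for Dppa2. Under that scaling 25.1% of 6375 genes were called higher and 0.894% lower.

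Klf17 was higher in KO in the spike-in set (0.41, interval 0.40 to 0.42) and lower in the low-rRNA set (-0.47, interval -0.50 to -0.45), so no direction held across sets. Dppa4 had 148 counts in WT and 66 in KO oocytes, and its ratio was -2.54 (-3.30 to -1.86) in the spike-in set and 0.22 (-0.70 to 1.22) in the low-rRNA set. The Rarg ratio of 2.02 fell to 0.093 without KO oocyte 6.

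Reads that carry a parental variant separate transcripts made from the sperm-derived genome, which cannot be egg mRNA, from those of the maternal genome. The authors' allele tables assigned 37.0% of WT and 39.5% of KO 2-cell counts to an allele. For the 33 oocyte columns the maternal table repeats the total and the paternal table is 0, so oocytes give no allele information. Shares are given for genes with 50 or more allele counts in a group, with exact Clopper-Pearson 95% intervals. The median gene had a paternal share of 21.6% in WT and 3.34% in KO.

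Dppa4 came from both parental alleles in WT, with 1808 paternal and 2395 maternal counts and a paternal share of 43.0% (41.5 to 44.5%). In single WT libraries its share ran from 32.7 to 52.2%. In KO the share was 49.5% (44.8 to 54.1%) on 467 counts, higher than that of 94.7% of genes in the KO samples. Both alleles were lower in KO: paternal Dppa4 counts by a log2 ratio of -3.51 (-3.71 to -3.31) and maternal ones by -3.88 (-4.08 to -3.69), each relative to all counts of the group and in CPM. The median gene had -2.33 on the paternal and -0.03 on the maternal side.

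On summed counts Rarg, like Dppa4, was lower in KO on both alleles. Its WT share was 43.3% (36.3 to 50.4%) on 201 counts, but single WT libraries ran from 0 to 77.8%. The log2 ratio of KO to WT was -3.98 (-5.24 to -2.94) for paternal and -3.79 (-4.78 to -2.93) for maternal counts. Of the 12 maternal counts in KO 11 came from KO 2-cell 7. Leaving out 1 library took the maternal ratio as low as -7.15. The KO libraries gave only 20 allele counts in all, too few for a share.

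Nr5a2 had a paternal share of 49.0% (45.8 to 52.1%) in WT, from 31.9 to 64.9% across libraries. In KO it was 20.8% (17.4 to 24.6%), from 0 to 54.9%. Paternal Nr5a2 counts differed by -2.72 (-3.03 to -2.41) and maternal ones by -0.85 (-1.04 to -0.66), so the difference was the larger on the paternal side. The maternal allele includes any egg mRNA that persists, and egg mRNA and new maternal-allele transcription cannot be told apart here.

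Dppa2, which was present in eggs, had a paternal share of 12.55% (11.4 to 13.8%) in WT and 2.21% (1.75 to 2.76%) in KO. A lower share was found for 37.7% of genes in WT and 43.7% in KO. Paternal Dppa2 counts differed by -2.89 (-3.27 to -2.54) and maternal ones by -0.23 (-0.30 to -0.16). Of the 76 paternal counts in KO 30 came from KO 2-cell 3.

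Klf17 was the gene whose alleles moved in opposite directions. Its paternal share was 23.1% (21.8 to 24.5%) in WT and 4.32% (3.95 to 4.72%) in KO, and single WT libraries ranged from 4.91 to 53.7%. These shares lay near the middle of all genes, with 51.7% of genes lower in WT and 54.5% in KO. Paternal counts were lower in KO by a log2 ratio of -1.43 (-1.60 to -1.27), a smaller difference than the -2.33 of the median gene. Maternal counts were higher by 1.30 (1.24 to 1.36). All 9 KO libraries were above the WT median for maternal Klf17, and 7 of 9 below it for paternal Klf17. KO 2-cell 9, with the lowest paternal share over all genes at 1.21%, had 0 paternal counts of any of the 5. Adding the TMM shift of 0.46 to these 10 allele ratios turns the sign of maternal Dppa2 and of no other.

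**Figure D3:**
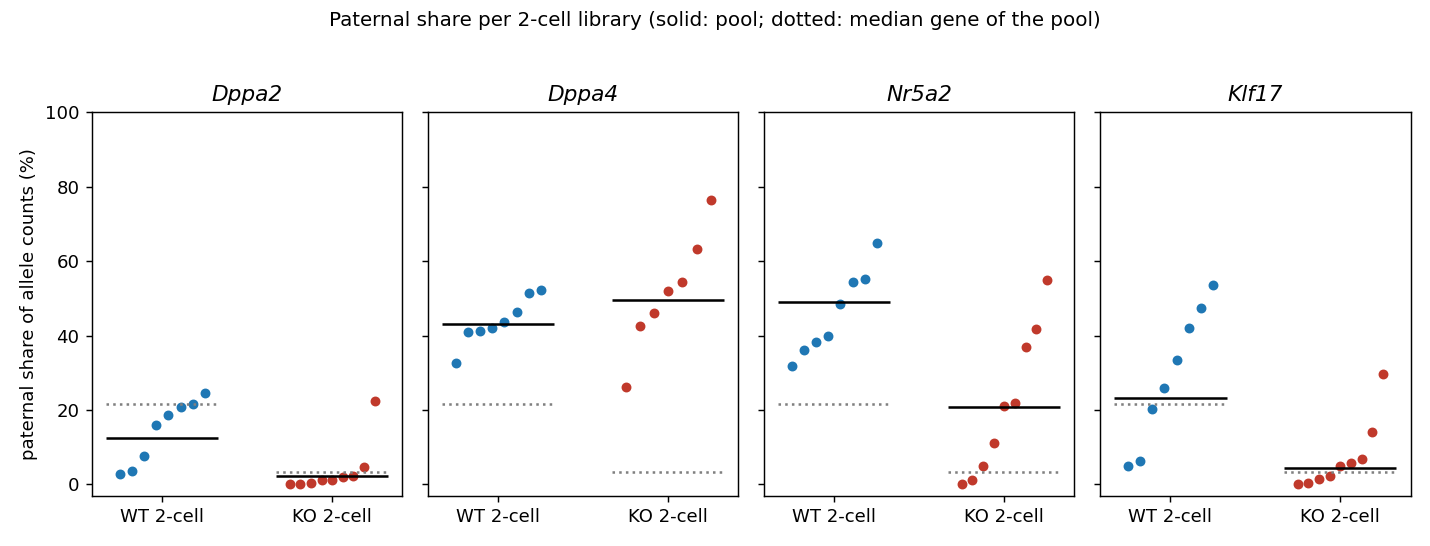
Each point is the paternal share in percent of allele-assigned counts in 1 2-cell library with 10 or more such counts of the gene, with a solid line at the share of the summed counts and a dotted line at the median gene. For Dppa4 the summed shares are 43.0% in WT and 49.5% in KO, while Dppa2, Nr5a2 and Klf17 are lower in KO, and KO 2-cell 3 is the highest KO point of these 3 genes.

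**Figure D4:**
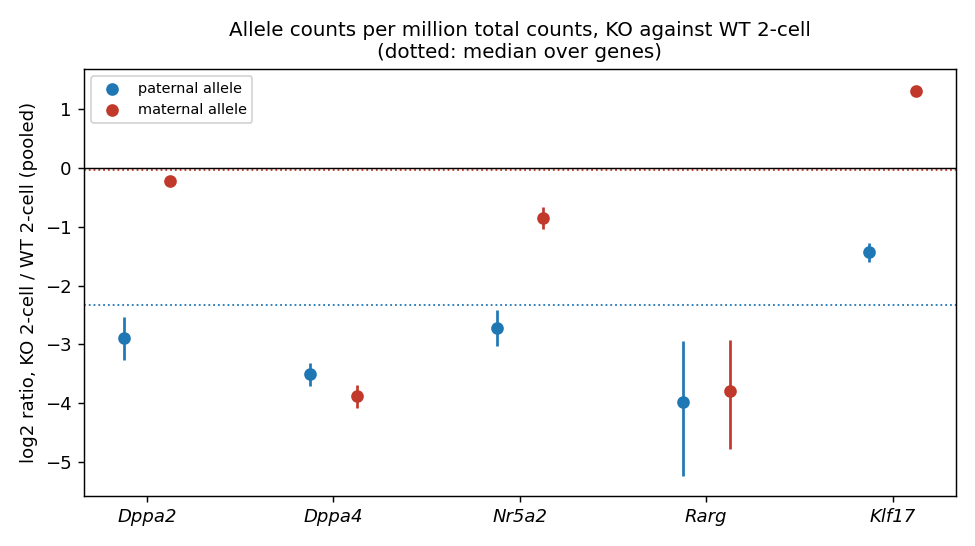
Points give the log2 ratio of KO to WT 2-cell allele counts in CPM of the total for each gene and allele, with 95% counting intervals and dotted lines at the median over genes (-2.33 paternal, -0.03 maternal). Paternal values are below 0 for all 5 genes, and the maternal value is above 0 for Klf17 only, at 1.30.

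Within a genotype, libraries with a larger paternal share over all genes held more Dppa4. Across the 8 WT libraries Pearson's r between log2(CPM + 1) of Dppa4 and that share was 0.90 and Spearman's rho 0.88, and r was 0.71 without the 2 farthest libraries. Across the 9 KO libraries these were 0.85, 0.90 and 0.81. For Klf17 r was -0.26 in WT, where it changed sign to 0.66 without the 2 farthest libraries, and -0.27 in KO. Dppa4 was not alone in this relation. For Nr5a2 r was 0.85 in WT and 0.81 in KO (0.71 and 0.34 without the 2 farthest libraries). For Rarg it was 0.91 and 0.39 (0.77 and 0.26 without them), and for Dppa2 0.44 and 0.12 (0.89 and -0.04). All 10 relations, 2 for each gene, are descriptions with no p, and the points share library and depth.

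Genes with a pattern like that of each of the 5 over the 17 2-cell libraries, by Pearson's r of log2(CPM + 1) among 6325 genes, were Serpinc1 for Dppa2 (0.85), Gpn3, Eci1 and Ctsc for Dppa4 (0.99, 0.98 and 0.98), Rprd1b, Pgm3 and Kpna1 for Nr5a2 (0.97, 0.96 and 0.96), Eif3m, Tmed6 and the nuclear receptor gene Nr2c2 for Rarg (each 0.96), and Maea and Wdr76 for Klf17 (0.87 and 0.87). After Serpinc1 came Zfp407 and H3f3a (0.82 and 0.82). Over all 50 oocyte and 2-cell libraries they were Tubb5, Cnnm4 and Tor1aip1 for Dppa2 (0.83, 0.80 and 0.79) and Timd2, Pramel7 and Obox6 for Dppa4 (0.97, 0.97 and 0.96). They were Ppp4r3a, Syncrip and Rps24 for Nr5a2 (0.89, 0.88 and 0.88), Arfrp1, Tmed6 and Sox11 for Rarg (0.94, 0.93 and 0.91), and Zkscan6 and Usp46 for Klf17 (0.86 and 0.86). Genotype and stage are shared by these points, so the values describe a common order of libraries.

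Counts of called genes in each gene list, between KO and WT 2-cell libraries, stand beside 31.6% lower and 5.96% higher over all genes, or 22.8% and 16.6% with TMM scaling. Other genes linked to genome activation were near these shares. Of 29 measured at 10 CPM or more from a list of 33, 10 were called lower and 1 higher, Obox1 at 1.26. The median log2 ratio was -0.37, against -0.35 for all genes. With TMM scaling 8 were lower and 6 higher. The largest differences were those of the homeobox gene Obox6 (16.8 CPM in KO, 355.8 in WT, log2 -4.41), the ETS factor gene Gabpa (-3.33), Nfyb, a subunit of NF-Y (-3.12), and Kdm5b, an H3K4 demethylase (-2.32).

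Transcripts placed downstream of DPPA2, DPPA4 and DUX were also called at about the all-gene shares of 31.6% lower and 5.96% higher. The counts were 9 lower and 2 higher of 29 measured, and the median was -0.44, and with TMM scaling 7 were lower and 7 higher. Tdpoz2 (log2 -4.50), Tdpoz4 (-3.25), Pramel6 (-3.13) and Pramel7 (-2.99) were lower, while Zscan4b was higher (1.14, from 10.7 to 23.6 CPM). Zscan4 and Tdpoz genes have near-identical copies among which the authors' counting could split reads, so their single values are uncertain. The list is made of transcripts known from the 2-cell stage. In WT 25 of 27 were higher at 2 cells than in oocytes, where 41.1% of all genes were (24 and 26.4% with TMM scaling), and in KO 23 of 26, where 23.6% of all genes were (23 and 10.9% with TMM scaling).

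Factors that restrain the 2-cell programme gave 5 lower and 1 higher of 18 (median -0.56), again near the shares of 31.6% and 5.96% over all genes. Ubtf, a ribosomal DNA transcription factor, had a log2 ratio of -2.36, Mga, a subunit of a PRC1 complex, -1.70, Zmym2 -1.57 and L3mbtl2 -1.53. The 1 that was higher was Kdm1a, a histone demethylase, at 1.29.

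In the KLF and SP family 9 of 15 were lower and 0 higher (median -1.05), and with TMM scaling 5 were lower and 1, Klf17, higher. Klf8 (-3.23), Klf13 (-2.53), Klf4 (-2.51) and Klf5 (-2.43) had the largest differences. Klf17 was thus opposite in direction to the relatives with the largest differences, but it was not alone. Klf11 (135.1 CPM in KO, 95.9 in WT, log2 0.49) and Klf7 (23.6 and 17.7 CPM, 0.42) were also higher, short of 2-fold.

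In the retinoic acid pathway 3 of 14 measured genes were higher and 1 lower (median -0.15), and with TMM scaling 6 were higher and 1 lower. Stra8, a gene induced by retinoic acid in germ cells, was lower (-2.60). Crabp2, a carrier of retinoic acid, was higher (134.7 CPM in KO, 34.2 in WT, log2 1.98), as were Dhrs3, a retinaldehyde reductase (1.24), and the receptor gene Rara (1.14). Rarg and Rara therefore had opposite directions.

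In the list of nuclear receptors near Nr5a2 and corepressors 6 of 13 were lower and 1 higher (median -0.70). Nr5a2 itself is in this list and among the 6. The corepressor genes Nr0b1 and Nr0b2 did not reach 10 CPM. Nr2c2 had 3.77 CPM in KO and 43.4 in WT (-3.53), Nr1h3 -2.98 and Nr2f2 -2.29, while Nr2c1, the relative of Nr2c2, was higher (39.4 against 9.31 CPM, log2 2.08) with no overlap between libraries. In the list of pluripotency and lineage genes 7 of 13 were lower and 1 higher (median -1.79). The growth factor gene Fgf4 (-7.08), Zfp42 (-3.95), Dppa5a (-2.87) and Tdh (-2.75) had the largest differences there, and Pou5f1 was the 1 called higher (1.02). In the DPPA family Dppa4 and Dppa5a were lower, Dppa3, a maternal factor, was at 0.88, and Dppa1 at -0.05 with an interval of -0.20 to 0.10.

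Without WT 2-cell 8 and KO 2-cell 3 the counts became 13 lower and 2 higher of 31 regulators of genome activation, 12 and 3 of 28 downstream transcripts, 9 and 0 of 14 in the KLF and SP family, 4 and 3 of 15 in the retinoic acid pathway, 6 and 1 of 18 restrainers, 6 and 2 of 13 nuclear receptors, and 9 and 2 of 15 pluripotency genes. Over all genes 37.4% were then lower and 11.7% higher. These libraries, chosen after seeing the data, had the lowest paternal share over all genes in WT and the highest in KO. Leaving them out favours a wider difference between the groups, so these counts are descriptions only.

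In the epiblast, the pluripotent tissue from which the embryo itself forms, Rarg and Dppa4 were the only ones of the 5 with enough counts to be tested. Nr5a2 had 0 counts in all 4 samples, which at 3 counts allows up to 0.146 CPM in the IVC samples together. Klf17 had 2 and 1 counts in E6.5 and 0 in IVC. edgeR's quasi-likelihood test with Benjamini-Hochberg adjustment over 11565 genes called 12% higher and 23.5% lower in IVC than in E6.5, at an adjusted p under 0.05, with a median log2 ratio of -0.85. Neither Rarg nor Dppa4 was among them. In these tissue samples fewer cells of a type and less RNA per cell cannot be told apart. Epiblast and single-cell levels come from separate tables and are not compared.

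Rarg had 574 and 1385 counts in the E6.5 samples, which is 48.5 and 57.6 CPM, and 88 and 6 counts in the IVC samples, which is 8.48 and 0.586 CPM. The groups did not overlap, but the IVC samples differed widely from each other, and the edgeR log2 ratio of -3.26 (SE 1.51) had an adjusted p of 0.190. Without IVC 1 the edgeR adjusted p was 8.92e-06 and without IVC 2 it was 0.000468, in fits where the lone IVC sample is assumed to vary like the E6.5 samples.

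Dppa4 had 47 and 151 counts in E6.5 (3.97 and 6.28 CPM), 220 counts in IVC 1 (21.2 CPM) and 0 in IVC 2. The IVC values lay on either side of the E6.5 values. The edgeR log2 ratio was 1.34 (SE 2.70, adjusted p = 0.763), and it was -9.25 (adjusted p = 0.0168) without IVC 1 and 2.34 (adjusted p = 0.00700) without IVC 2. Dppa2 had 1 and 49 counts in E6.5 and 0 in both IVC samples, so that its summed level was at least 9.58-fold higher in E6.5, against a floor of 3 counts over the IVC group, and nearly all of it came from 1 sample.

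The IVC samples had 8380 and 8990 genes with a count, against 13101 and 13698 in E6.5. Widely expressed genes were at 0 in both IVC samples, such as Yap1 (305 and 332 CPM in E6.5) and the NF-Y subunit gene Nfya (52.4 and 33.9 CPM). The 12 trophoblast-list genes summed to 6275 and 6316 CPM in IVC against 177.6 to 181.9 in E6.5. Nearly all of the IVC sum was Prl3d1, a trophoblast giant cell hormone gene (6254 and 6259 CPM), while 8 of the 12, among them Cdx2 and Ascl2, were at 0. Visceral endoderm markers summed to 900.7 to 1258 CPM in IVC and 284.1 to 310 in E6.5, epiblast markers to 2156 to 2391 and 5959 to 7001, and all 12 oocyte markers were at 0 in both. Dnmt3b alone gave 3508 and 4110 CPM of the epiblast sum in E6.5, and 479.3 and 396.4 in IVC. By edgeR's test 1 of 12 epiblast markers was higher in IVC, 2 lower and 9 neither. Of 14 visceral endoderm markers 5 were higher, 1 lower and 8 neither. The part of these differences in the values of Rarg and Dppa4 was not tested.

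**Figure D5:**
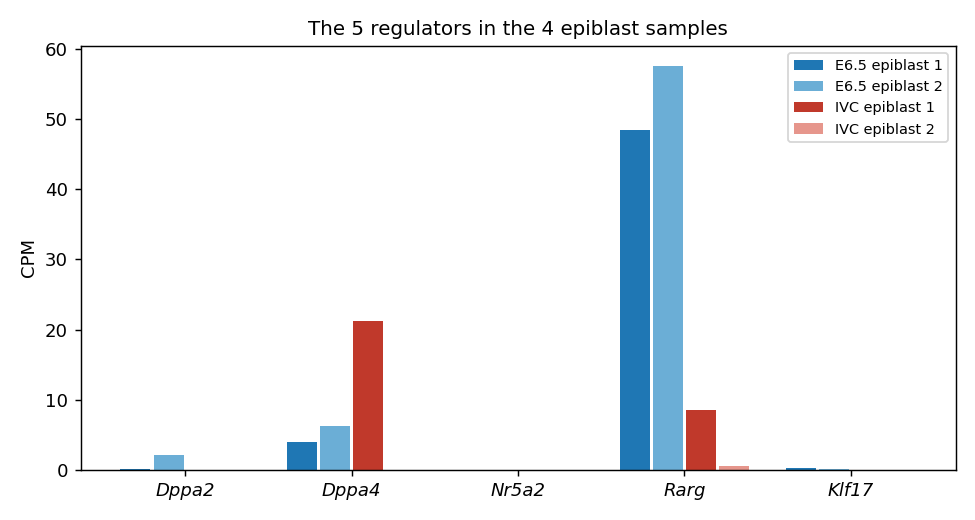
Bars give the CPM of each gene in each of the 2 E6.5 and 2 IVC epiblast samples. Rarg is at 48.5 and 57.6 CPM in E6.5 and 8.48 and 0.586 in IVC, Dppa4 is at 21.2 CPM in IVC 1 and 0 in IVC 2, and Nr5a2 is at 0 in all 4.

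The counts of the lists in the epiblast stand beside 12% of all tested genes higher and 23.5% lower in IVC. In the retinoic acid pathway 4 of 22 tested genes were higher and 4 lower in IVC by edgeR's test. The RXR genes Rxra and Rxrb, whose products pair with RARG, were at 0 in both IVC samples and at 27.1 and 36.9, and 33.8 and 47.7 CPM, in E6.5. The others with the largest differences were Stra6, a retinol transporter gene (17.8 and 9.73 CPM in E6.5), and Rxrg (2.03 and 4.91), both at 0 in IVC. In the KLF and SP family 2 of 22 were higher and 3 lower: Klf2 (11.9 and 20.2 CPM in E6.5), Sp6 and Klf14 were the 3, each at 0 in IVC.

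In the list of other regulators of genome activation 2 of 21 were higher and 7 lower, with Yap1 and Nfya among the lower and Gata3, a trophoblast factor gene, higher (log2 5.42, SE 1.33, edgeR adjusted p = 0.0469). Of the restrainers 0 of 21 were higher and 5 lower, a lower count near the 23.5% of all genes. Among the 5 were Trim28 (47.9 and 130.5 CPM in IVC, 1435 and 1502 in E6.5, edgeR log2 -3.78, adjusted p = 0.0301) and Dnmt1 (-3.22, adjusted p = 0.00775). Of the downstream transcripts 4 passed the filter on low counts and 1 was higher, Eif1a (edgeR log2 1.87, SE 0.18, adjusted p = 0.01265). Of 14 nuclear receptors 5 were lower and 0 higher, and of 21 pluripotency genes 5 were lower and 2 higher. In the DPPA family Dppa5a was higher in IVC (361 and 399.8 CPM against 30.3 and 41.3, edgeR log2 3.69, SE 0.26, adjusted p = 0.00653).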

How the data were processed

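Read counts per gene (counts, deposited by the authors as whole numbers, not normalized) were used as total, maternal and paternal tables for 50 oocyte and 2-cell libraries and as 2 epiblast tables with 4 samples. The submitters' processing notes name STAR 2.6.0a, HTSeq 0.10.0, featureCounts 2.0.1, Trim Galore 0.6.6 and cutadapt 1.15, without roles, and build mm9. How counts were assigned to alleles is not given in the sources used here. The other 155 of the 209 samples were not analysed here.

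The 92 ERCC spike-in rows were left out of totals. Counts were summed over the libraries of a group, scaled to CPM, and compared as ratios with exact 95% intervals (scipy 1.17.1). A gene was called at 2-fold or more with 10 CPM in either sum, and a sum of 0 was set to 3 counts. No 2 libraries of a group agreed within sampling noise (the smallest chi-square per degree of freedom was 14.3). Epiblasts were fitted on all genes with edgeR 4.0.16 (TMM, filterByExpr, no replicate block), with DESeq2 1.42.0 as an alternative. With 2 samples a group and no statement that they came from separate animals, p-values measure the spread between these samples. Depth limits low genes such as Rarg. The ratios of summed counts and their intervals were tried on simulated counts with sampling noise only, which is less than the spread between these libraries. Other scalings, a mean over libraries, other minimums and each library left out were tried.

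The 5 genes, the lists, the oocyte sets and the rules were chosen with earlier results of these data known. All 5 were named throughout, with up to 4 genes of each list by the largest ratio between KO and WT 2-cell or between epiblasts, and the 3 nearest genes by pattern. One gene that this rule names for Klf17 is not reported here. Obox1, Zscan4b, Kdm1a, Pou5f1, H1foo, Dppa3, Klf7, Klf11, Trim28, Dnmt1 and Dnmt3b, where not among those 4, were named after their values were seen. Scaling per spike-in count, TMM scaling with the spike-in oocytes, and leaving out WT 2-cell 8 and KO 2-cell 3 together were chosen after seeing the data.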

Additional observations from a re-analysis of the deposited data

Results flagged for a closer look

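Of 34 groups of 4 to 10 libraries examined for a single distant value, 5 had one, where chance gives about 1 in 20. KO 2-cell 3 accounted for 3 of them. Its Dppa4 level was 65.8 CPM, with the next KO library at 31.3 CPM. Its paternal share was 22.6% for Dppa2, with the next at 4.69%, and 29.7% for Klf17, with the next at 14.1%. This library also had the smallest total, 2704050 counts, and the highest paternal share over all genes among KO libraries, 8.68%. In the spike-in WT oocytes, WT oocyte 8 had 5.47 CPM of Dppa4, with the next at 2.37 CPM. In the low-rRNA KO oocytes, KO oocyte 6 had 5.87 CPM of Rarg, with the next at 0.233 CPM.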

How the results depend on the processing

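Log2 ratios are given throughout. Between KO and WT 2-cell samples, scaling per spike-in count gave 0.23 for Dppa2 and 1.67 for Klf17. Other settings moved no member by more than the spread between libraries there. Between WT stages, TMM scaling gave -0.10 for Dppa2, 5.46 for Rarg and -2.16 for Klf17, and DESeq2 size factors gave -0.20 for Dppa2, 0.86 for Nr5a2, 5.36 for Rarg and -2.26 for Klf17. With the spike-in oocytes only, TMM scaling gave 5.58 for Dppa4, 0.86 for Nr5a2, 5.25 for Rarg and -2.36 for Klf17, and scaling per spike-in count 5.30 for Dppa4, 0.57 for Nr5a2, 4.96 for Rarg and -2.64 for Klf17, so that Nr5a2 was no longer 2-fold. Between KO stages, the spike-in oocytes gave 2.21 for Rarg, per spike-in count they gave -0.33 for Nr5a2 and -1.88 for Klf17, and with TMM scaling -1.51 for Klf17. Leaving out 1 library gave 0.72 to 3.03 for Rarg. Between oocyte genotypes, the spike-in set gave -2.54 for Dppa4 and 0.63 for Rarg (with TMM scaling -2.62 and 0.56, and per spike-in count 1.12 for Rarg), the low-rRNA set gave 0.22 and 4.40, and leaving out 1 library gave 0.093 to 2.35 for Rarg. The 9 paternal shares moved by less than the spread between libraries in all 94 alternatives.

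Counts of called genes moved with scaling, from 502 higher and 2658 lower between KO and WT 2-cell samples to 1397 and 1916 with TMM (2493 and 1454 per spike-in count), from 3507 and 1224 between WT stages to 2249 and 2758, and from 1691 and 1246 between KO stages to 785 and 2280. Between oocyte genotypes 129 and 151 became 600 and 235 in the spike-in set (1603 and 57 per spike-in count) and 334 and 260 with the mean over libraries. In the epiblast a replicate block gave -2.12 for Dppa4 (edgeR adjusted p = 0.909) and -4.24 for Rarg (adjusted p = 0.364), with 893 genes higher and 361 lower in place of 1389 and 2717. The correlation of same-numbered samples' deviations was 0.00084, from too few samples to show whether those with the same number were paired. Leaving out 1 sample gave -9.25 to 2.34 for Dppa4 and -6.23 to -2.35 for Rarg, and 118 to 5476 genes lower. Without a filter 965 were higher and 631 lower. The causes were not tested.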
